A study of Homo sapiens with 3 samples.

Results

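RNA that carries several ribosomes was set against the total RNA of the same cell line, gene by gene, in H9 human embryonic stem cells. H9 is an established line that can form all tissues of the embryo proper, and the total RNA sample is labelled as pluripotent. The study hybridised 3 RNA samples, each to 1 Affymetrix array: RNA from the polysome-bound pool, RNA from the polysome-unbound (polysome free) pool, and total RNA of the cells. The comparison described here is the bound array minus the total RNA array, and the unbound array is shown beside it. All 3 samples are labelled with the same line and no treatment, and the labels do not say whether the extracts came from the same culture. RNA of both polysome pools was purified with the PureLink RNA mini kit (Invitrogen) and total RNA with the RNeasy Plus mini kit (Qiagen), so kit and RNA source cannot be told apart in this comparison. With 1 array a side there is no replicate error and no test, and each difference below is a description of these arrays.

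Values are log2 levels as deposited, 1 per probe set. Of 18417 genes with a probe set of their own, 12064 passed a filter on level, a mean over the 3 arrays above 3.84. That limit is the 95th percentile of the mean level of 481 tissue-restricted genes, such as olfactory receptors, which stand for background. The bound array was brighter throughout, with a median of 7.23 over the 12064 genes against 6.20 for total RNA and 5.96 for unbound RNA. Each array was therefore centred on its median, and "relative difference" below means the centred bound level minus the centred total RNA level, on the log2 scale. A positive value means that a transcript took a larger place among the bound transcripts than among all transcripts. It is not an absolute amount, and it says nothing of how much RNA each pool held. The background line was 4.39 on the bound, 3.56 on the unbound and 3.75 on the total RNA array. As a check of the labelled cell type, pluripotency genes were above background on the total RNA array, where SOX2 read 9.50, LIN28A 11.10, DNMT3B 9.04 and SALL4 9.06.

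Ribosomes load onto a messenger RNA one after another, and an mRNA with many of them sediments as a polysome. The share of an mRNA found in polysomes is a common measure of how actively it is translated, while total RNA also holds mRNA that is stored, nuclear or on its way to decay. Messenger RNAs of ribosomal proteins and of many translation factors start with a terminal oligopyrimidine tract (TOP), a C followed by further C or T letters directly at the cap, through which mTOR and LARP1 switch their translation on and off. Genes of mitosis are known for another signal, the cell cycle genes homology region (CHR), which together with CCAAT boxes ties their transcription to the late cell cycle. Small nuclear and small nucleolar RNAs carry no reading frame, and they act in splicing and in modification of other RNAs.

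Sequences of TOP mRNAs and of mitotic genes, groups that lay below total RNA, are shown first. They are from RefSeq tables of GRCh38.p14, on the gene's strand, and the transcript start is the first one listed. Below are the first 20 bases of 7 ribosomal protein mRNAs and 3 other TOP mRNAs, picked because they hold the tract and among them to span high and low relative differences, with the run of pyrimidines at the start in capitals.
RPS19: CCCTTTCCCCTggctggcag
RPL7A: CTTTCTCTCTCCTCCCgccg
RPS3A: CCCTTTTggctctctgacca
RPL27A: CTTTTTCgtctgggctgcca
RPS27: CCTTTCCggcggtgacgacc
RPS23: CTCTTTCgctcaggcccgtg
FAU: CTCTTTCTCgactccatctt
EEF2: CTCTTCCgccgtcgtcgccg
NOP53: CTTCCTTTgacaagatggcg
TPT1: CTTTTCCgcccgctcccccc
RPS19 starts at chr19:41860255-41860274, RPL7A at chr9:133348218-133348237, RPS3A at chr4:151099628-151099647 and TPT1 at chr13:45341164-45341183. Each of the 10 opens with C and a pyrimidine run, and the run was 11 bases in RPS19, 16 in RPL7A and 9 in FAU. Their relative differences ran from -2.11 (RPS19) to -0.35 (FAU). The listed starts of 3 further ribosomal protein genes held no such run.
RPL13: ccagagtgcattgcggggcc
RPL27: agcggaagtgtccttctttc
RPL36AL: cctgttaggcgagagctgcg
RPL13 nevertheless had a relative difference of -1.95 and RPL27 of -1.84, while RPL36AL had -0.69.

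For the mitotic genes the 100 bases before the transcript start are printed for 5 members whose relative differences lay between -2.11 and -1.60. They were picked because they hold both CHR and CCAAT letters there, and other mitotic genes of that range do not appear. Capitals mark CHR letters (TTTGAA or TTCGAA, on either strand, so also TTCAAA) and CCAAT boxes (CCAAT, or ATTGG on the other strand).
KIF4A: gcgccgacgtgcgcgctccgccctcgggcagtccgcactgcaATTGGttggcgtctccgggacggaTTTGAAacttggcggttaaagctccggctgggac
HMMR: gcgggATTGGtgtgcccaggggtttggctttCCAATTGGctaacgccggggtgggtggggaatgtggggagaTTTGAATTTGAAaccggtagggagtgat
KIF11: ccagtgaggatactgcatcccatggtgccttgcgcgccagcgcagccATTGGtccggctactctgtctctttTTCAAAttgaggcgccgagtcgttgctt
KPNA2: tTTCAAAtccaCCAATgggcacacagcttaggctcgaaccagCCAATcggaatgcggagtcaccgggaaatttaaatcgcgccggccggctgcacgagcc
CKAP5: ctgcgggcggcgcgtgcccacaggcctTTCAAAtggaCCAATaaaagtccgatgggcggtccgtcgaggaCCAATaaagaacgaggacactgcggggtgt
KIF4A lies at chrX:70290004-70290103, HMMR at chr5:163460532-163460631, KIF11 at chr10:92593030-92593129, KPNA2 at chr17:68035635-68035734 and CKAP5 at chr11:46846281-46846380 (minus strand). HMMR held 2 CHR matches and 3 CCAAT matches, which overlap in part, and KIF4A held 1 of each.

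The microRNA precursors furthest below total RNA belong to the miR-302 cluster, which is typical of human pluripotent cells. Their mature products are printed with the seed (bases 2 to 8) in capitals.
hsa-miR-302b-3p: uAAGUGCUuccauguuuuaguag
hsa-miR-302a-3p: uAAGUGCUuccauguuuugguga
The mature forms lie at chr4:112648489-112648511 and chr4:112648186-112648208 on the minus strand, and they share 1 seed. The array probes cover the precursor and do not measure the mature form on its own.

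Of the 12064 genes, 321 (2.66%) were at least 2-fold higher on the bound array than on the total RNA array after centring, and 773 (6.41%) were at least 2-fold lower. These shares are the background against which every count below is read. The relative difference over all genes had a median of -0.14 and an SD across genes of 0.60, and levels on both arrays correlated at a Pearson r of 0.944 across genes, which share their probes and are not independent. Protein coding genes, 11497 of the 12064, gave 292 higher and 675 lower. Of small nuclear RNAs 13 of 18 were lower, and of small nucleolar RNAs 42 of 136.

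**Figure D1:**
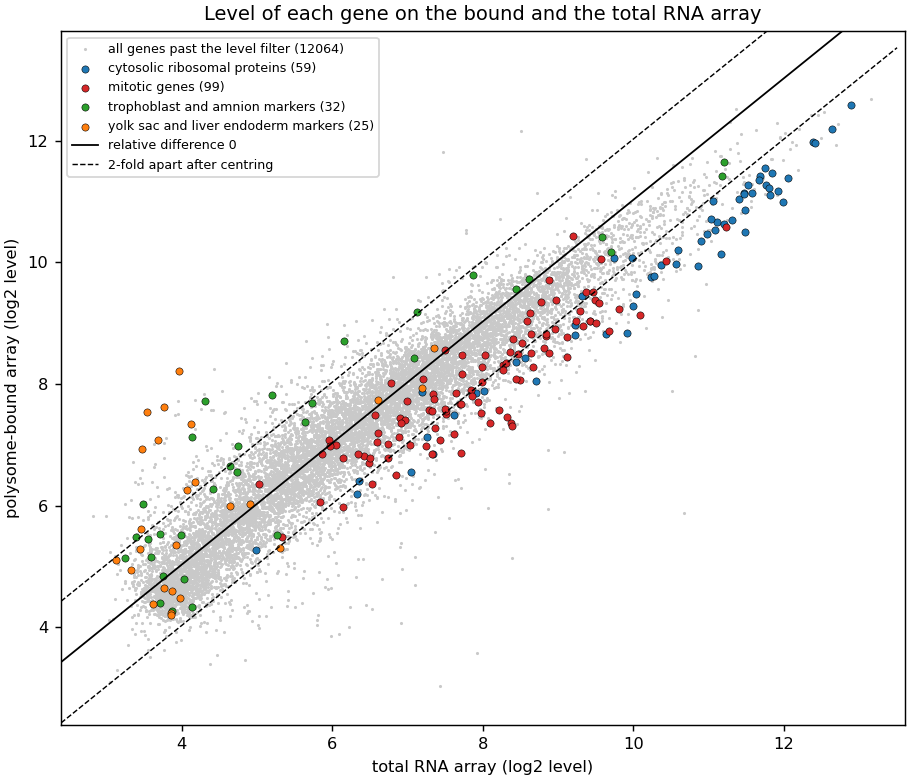
Log2 level on the polysome-bound array (vertical) against the total RNA array (horizontal) for the 12064 genes past the level filter, 1 point a gene, with 4 gene lists in colour; the solid line marks a relative difference of 0 and the dashed lines 2-fold. Most ribosomal protein genes (53 of 59) lie on or below the lower dashed line, most mitotic genes lie below the solid line, and the endoderm and trophoblast markers that stand above the upper dashed line are mostly dim on the total RNA array.

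With histones and small RNAs left aside, the genes furthest above total RNA were plasma proteins, transporters and regulators known from tissues other than stem cells. TTR, the carrier of thyroxine and retinol, read 8.22 on the bound, 4.82 on the unbound and 3.96 on the total RNA array, a 9.34-fold relative excess. APOA2, an apolipoprotein of high-density lipoprotein, read 7.62, 5.55 and 3.76 on the same arrays, 7.09-fold. Both genes were near background in total RNA and well above it on the bound array.

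ANKRD36B, an ankyrin repeat gene with close copies, read 8.24 bound, 5.37 unbound and 4.43 total RNA, 6.89-fold, and its probes may pick up those copies. LMO3, a LIM-only transcription cofactor of neural tissue, read 7.49, 6.76 and 3.92, 5.81-fold. SLC30A10, a manganese exporter, was at background in total RNA (3.55) against 7.54 bound and 6.60 unbound, and was at least 6.76-fold higher on the bound array, taken against the background line. CSAD, which makes the taurine precursor hypotaurine, had a relative difference of 2.53, the sphingosine-1-phosphate phosphatase SGPP2 2.52 and the cell surface mucin MUC15 2.52.

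Among the 321 higher genes the median level in total RNA was 4.90, and 43 of them lay at or below the background line there. With both arrays required to exceed the 99th percentile of background (5.93 bound, 4.98 total RNA), 8272 genes remained, of which 151 (1.83%) were higher and 603 (7.29%) lower. In that brighter set, with histones again left aside, the cilium gene WDR19 was highest, with 8.71 bound, 5.75 unbound and 5.65 total RNA, a 4.09-fold relative excess. FABP7, a fatty acid binding protein of neural progenitors, followed at 8.98, 8.37 and 5.93, 4.05-fold. NKTR, a cyclophilin with arginine-serine repeats, read 8.97, 5.98 and 6.15, 3.46-fold. DOT1L, a histone methyltransferase, read 8.58, 5.44 and 5.95, 3.03-fold. WDR19, NKTR and DOT1L were thus high on the bound array alone, whereas FABP7 was high on both polysome arrays.

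At the other end stood noncoding RNAs, secreted matrix proteins and cell surface proteins. RPPH1, the RNA of RNase P, which trims transfer RNA precursors, read 5.95 bound, 11.16 unbound and 8.86 total RNA, 15.4-fold lower in relative terms. RMRP, the RNA of the related RNase MRP, read 7.89, 12.21 and 10.51, 12.5-fold lower. Both were most intense on the unbound array.

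SPP1, the secreted phosphoprotein osteopontin, read 6.37 bound, 4.59 unbound and 8.35 total RNA, 8.07-fold lower, and was low on both polysome arrays. The membrane protein TM4SF18 read 4.97, 3.95 and 6.92, 7.92-fold lower. ACTG2, an actin of visceral smooth muscle, read 5.15, 4.05 and 7.09, 7.85-fold lower. The surface nucleotidase NT5E was at background on the bound array (4.04, against 5.80 in total RNA) and at least 5.42-fold lower.

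Further coding genes of this end were the interferon-induced ubiquitin ligase TRIM22 (relative difference -2.78), the galanin precursor GAL (-2.60), the laminin receptor subunit ITGA3 (-2.55), the ectoenzyme ENPP1 (-2.45), the retinol acyltransferase LRAT (-2.34), the folate enzyme MTHFD1 (-2.31) and caveolin CAV1 (-2.26). For iron, both the storage protein FTL (-2.11) and the uptake receptor TFRC (-2.04) were among the lowest of the brighter set. They differed on the unbound array, where FTL was above total RNA (unbound minus total 1.55) and TFRC below it (-1.73). Among all 773 lower genes the quartiles of the unbound minus total difference were -1.38 and 0.20, and 55 lay at or below background on the bound array.

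The relative difference also moved with signal level. From the dimmest to the brightest of 5 equal groups of genes its median was -0.22, -0.00, -0.00, -0.11 and -0.37. In the brightest group 371 genes (15.4%) were at least 2-fold lower and 22 higher. For the bright lists below, the count after removal of this trend (a lowess curve, under which 389 genes, or 3.22%, were higher and 444, or 3.68%, lower) is given too. Housekeeping controls show its size. GAPDH, a glycolytic enzyme, read 12.47 bound, 12.82 unbound and 12.53 total RNA, and its relative difference of -1.09 became 0.14 after the trend was removed. ACTB moved likewise from -1.07 to 0.14.

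**Figure D2:**
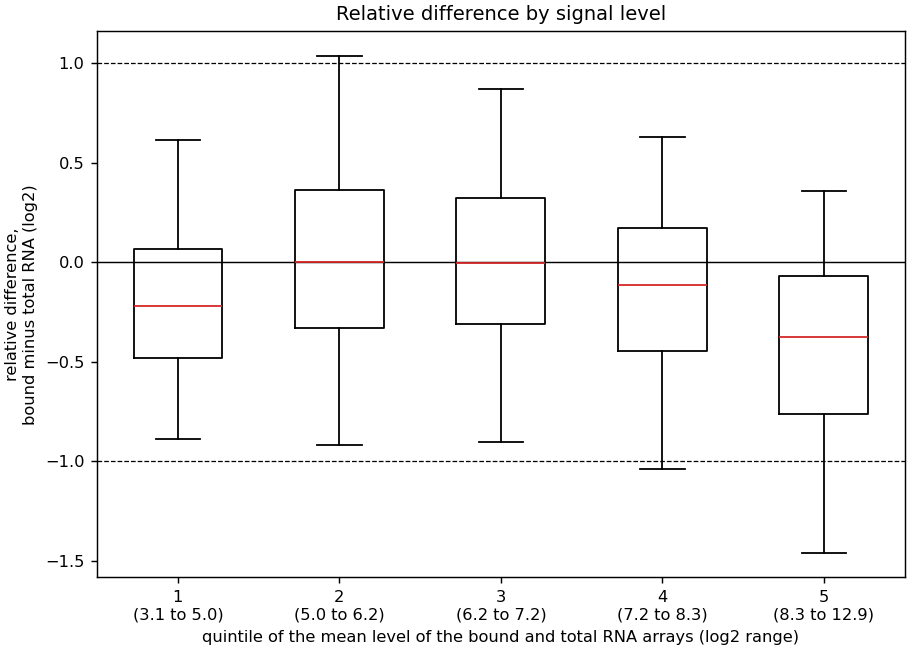
Relative difference, bound minus total RNA (log2), in 5 equal groups of genes ordered by the mean level of both arrays; boxes span the quartiles with the median in red, and whiskers reach the 5th and 95th percentiles. The median falls to -0.37 in the brightest group, and its whole box lies below 0.

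A gene measured by more than 1 probe set gives the only repeat reading in these data, though it shares RNA and array and is no replicate. For 406 genes with probe sets that were not identical, the relative differences of the pair differed by a median of 0.17 and by up to 0.69 in 90% of the genes, and the SD per probe set was 0.34. Of 58 such genes that were 2-fold apart, the second probe set was also 2-fold apart in 36 and had the same sign in 53. APOA1 (2.18 and 2.05) and EEF1A1 (-1.50 and -1.52) repeated closely. PLCG2 (-2.67 against -0.58), SNHG17 (2.25 against 0.37) and EEF1D (-1.07 against 0.52) did not, and their values rest on the choice of probe set.

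Cytosolic ribosomal proteins had the largest share of lower genes among the gene lists before the signal trend was removed. All 59 measured mRNAs had a negative relative difference, 53 were at least 2-fold lower on the bound array and none was higher, with a median of -1.44 against -0.14 for all genes. RPS19 of the small subunit read 8.84 bound, 10.70 unbound and 9.92 total RNA, 4.33-fold lower than in total RNA. RPL7A of the large subunit read 10.13, 11.92 and 11.16, 4.17-fold lower, and RPS3A read 10.99, 12.56 and 11.98, 4.06-fold lower. On the unbound array the same mRNAs were above total RNA, by 1.13 at the list median.

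Both subunits were alike in their counts, with 34 of 37 large subunit and 19 of 22 small subunit mRNAs at least 2-fold lower. The least displaced were FAU (-0.35), which is made as a fusion with a ubiquitin-like protein, RPL36AL (-0.69), a retrogene copy, RPL32 (-0.74) and RPS23 (-0.90). RPL7A and several others have processed pseudogenes whose RNA the probes could share. Of the 59, 49 fell in the brightest of the 5 level groups, and after removal of the signal trend 17 were 2-fold lower with a median of -0.80. The share was then larger in other lists, such as small nuclear RNAs (10 of 18).

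The other TOP mRNAs followed the ribosomal proteins. Of 26, 19 were at least 2-fold lower and none higher, with a median of -1.26, which became -0.67 with 3 lower after removal of the signal trend. All 5 elongation factor mRNAs were among the 19, and 1 of them was lower after removal of the signal trend. EEF1D (-1.07) belongs to the 5, and its second probe set gave 0.52. EEF2, which moves the ribosome along, read 11.12 bound, 12.13 unbound and 11.75 total RNA. EEF1A1, which brings aminoacyl-tRNA, read 12.69, 13.13 and 13.16. The poly(A)-binding protein PABPC1 (-1.68) and the initiation factor subunit EIF3E (-1.70) were the lowest of the list. TPT1, a tumour protein under tight TOP control, read 10.06, 11.86 and 10.60, and the ribosome assembly factor NOP53 read 8.25, 10.02 and 8.79. CCNI (-0.44) and HNRNPA1 (0.06) stood apart from the rest.

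The letters at the start were compared with these values. Of 50 ribosomal protein genes with a listed start, 34 (68.0%) opened with C and at least 4 further pyrimidines. Among 9603 coding genes the share was 5.37%. Of other TOP genes 15 of 19 did (78.9%), but they were listed as TOP mRNAs, so a high share follows from the choice. Ribosomal protein genes with the tract had a median relative difference of -1.46 and 31 of 34 were 2-fold lower, and the 16 without it had -1.32 with 13 lower. Outside both lists, 467 genes opened with such a tract, with a median of -0.26 and 40 (8.57%) lower, against -0.13 and 5.18% for the 9067 genes without it. On the unbound array the median against total RNA was 1.03 for ribosomal protein genes with the tract and 1.24 without it. For the other genes it was 0.17 with the tract and -0.11 without it. The part of the tract in these values was not tested, and each gene was judged by 1 listed start. Other starts are in use for many genes, and counting any listed start raised the shares to 74.0%, 84.2% and 7.46%.

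Translation initiation factors outside the TOP list were displaced less. Of 35 measured, 7 were at least 2-fold lower and none higher, with a median of -0.51. EIF5B, which joins the ribosomal subunits, read 8.94 bound, 6.87 unbound and 9.30 total RNA, and the scaffold EIF4G1 read 8.49, 6.64 and 8.79, both low on the polysome arrays alike. EIF3D (10.01, 10.72 and 10.13) was above total RNA on the unbound array, as ribosomal protein mRNAs were. The eIF4E inhibitor EIF4EBP1 (-0.14) and the poly(A)-binding protein partners PAIP2 (-0.12) and PAIP1 (0.04) lay at the median of all genes.

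Aminoacyl-tRNA synthetases, which charge transfer RNAs with amino acids, were lower in 8 of 19 cases with a median of -0.94, and in 3 after the signal trend was removed. QARS1 (-1.56) and VARS1 (-1.55) were lowest and HARS1 (-0.40) and CARS1 (-0.53) highest. QARS1 read 8.82, 10.12 and 9.36 on the bound, unbound and total RNA arrays, and VARS1 7.06, 5.44 and 7.58, so the pair split on the unbound array.

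**Figure D3:**
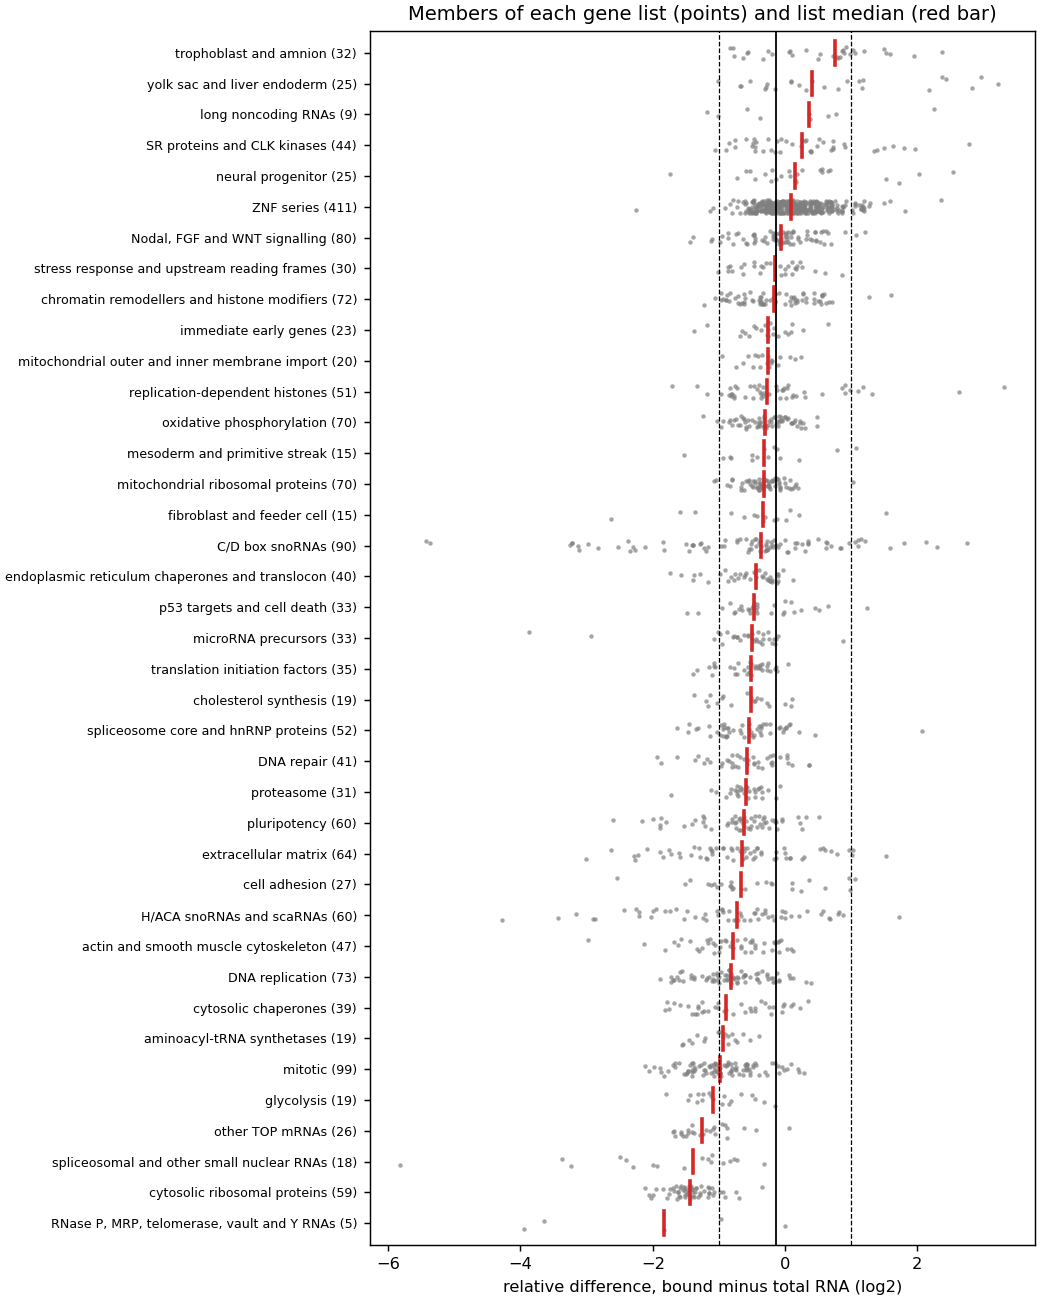
Relative difference, bound minus total RNA (log2), of every measured member (grey points) and the median (red bar) of each gene list with at least 5 measured genes, ordered by median; numbers of genes are in brackets, the solid line is the median of all genes and the dashed lines mark 2-fold. Ribosomal protein genes all lie left of the line and mitotic genes for the most part, C/D box snoRNAs spread over the widest range, and trophoblast and endoderm markers have tails to the right.

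Genes of mitosis were lower on the bound array in most cases. Mitosis parts the copied chromosomes, and most of its genes are transcribed late in the cell cycle. Of 99 measured, 47 were at least 2-fold lower and none was higher, with a median of -0.98. After removal of the signal trend 29 were 2-fold lower and the median was -0.78. Below the median of all genes lay 90 of the 99. As deposited the list median was 0.05 against 0.89 for all genes. Centring moves all genes alike, so the distance of 0.84 below all genes is the same by construction. On the unbound array the list median against the same total RNA array was -0.94.

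Mitotic kinesins, the motors of the spindle, were the lowest role, with 10 of 12 at least 2-fold lower and a median of -1.35. KIF4A, which compacts chromosomes and the central spindle, read 7.30 bound, 5.98 unbound and 8.39 total RNA, 4.33-fold lower than in total RNA. KIF20A, a motor of cytokinesis, read 7.35, 6.45 and 8.38, 4.15-fold lower. KIF11, which pushes the poles apart, read 7.36, 6.75 and 8.10. All 3 were low on both polysome arrays.

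Among the other roles, 9 of 15 cyclins, mitotic kinases and partners were lower (median -1.05), with CCNB1, the cyclin that drives entry into mitosis, at 10.03, 9.26 and 10.43. Of 20 genes of spindle assembly and cytokinesis 11 were lower (-1.03), led by HMMR (-1.87), DLGAP5 (-1.83) and the nuclear import receptor KPNA2 (-1.67). Of 13 genes of the chromosomal passenger complex, cohesion and condensin 7 were lower (-1.07), and TOP2A, the topoisomerase that untangles sister chromosomes, read 9.13, 7.63 and 10.09. The checkpoint kinases TTK (-1.89) and BUB1 (-1.70) were among 4 of 13 checkpoint genes that were lower (-0.80).

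The kinetochore was displaced least. Of 26 genes 6 were lower, with a median of -0.58, and NDC80 (-1.50), the microtubule coupler, was lowest. CENPM (0.29) and CENPW (0.21), small inner kinetochore proteins, and SKA2 (0.20) had the highest values of the whole mitotic list. CENPM read 6.35 bound, 4.49 unbound and 5.03 total RNA. The polo kinase PLK4 (-0.27) and the phosphatase CDC25B (-0.09) also stayed near all genes.

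Of 84 mitotic genes with a listed promoter (250 bases before to 50 after the start), 58 (69.0%) held CHR letters, against 11.4% of all coding genes, and 65.5% held a CCAAT box, against 37.3%. Within the list, the 58 had a median of -1.03 with 32 lower, and the 26 without CHR letters had -0.98 with 11 lower. Outside the list, 1039 genes with CHR letters had a median of -0.15 and 8480 without them -0.13. CHR letters were common in the list, and within it both medians were close.

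DNA replication genes moved in the same direction with smaller values. Of 73 measured, 27 were at least 2-fold lower and none higher, with a median of -0.82 (16 lower and -0.63 after the signal trend was removed, 0.21 as deposited against 0.89 for all genes). ORC1, which marks origins, read 6.31 bound, 6.44 unbound and 7.17 total RNA, a relative difference of -1.89. The replicative helicase subunits MCM2 (7.40, 5.94 and 8.10) and MCM4 (8.38, 7.22 and 9.06) had -1.72 and -1.70. RRM1, the large subunit of ribonucleotide reductase, read 9.15, 8.56 and 9.84, at -1.72.

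By role, 10 of 29 licensing and helicase genes, 9 of 30 polymerase and clamp genes and 8 of 14 nucleotide supply genes were lower. ORC6 (0.08), MCM8 (0.13), the leading strand polymerase POLE (0.31) and the thymidylate kinase DTYMK (0.39) lay above the median of all genes. E2F letters (TTTCGCGC or TTTGGCGC, either strand) stood in 12 of 63 promoters, against 2.19% of all coding genes. DNA repair genes had 8 of 41 lower with a median of -0.58, from the strand break sensor PARP1 (9.02, 7.21 and 9.93, -1.94) to the mismatch repair gene PMS2 (0.37).

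Small noncoding RNAs covered the widest range. Of 18 small nuclear RNAs 13 were at least 2-fold lower on the bound array and none higher, with a median of -1.39, and on the unbound array their median against total RNA was 1.27. Many were near the floor: of 23 on the array 10 were above the background line of the bound array, and the median bound level was 4.44. RNU2-1, the RNA that pairs with the branch point, read 7.88 bound, 11.31 unbound and 9.35 total RNA. RNU5D-1 read 5.87, 6.62 and 10.67, the lowest at -5.82, and unlike the list median it was below total RNA on both polysome arrays. The variants of U5 and U1 are near-identical, so their probe sets share signal. TERC, the telomerase RNA, read 4.81, 7.36 and 5.61, 3.55-fold lower on the bound array.

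Among 90 C/D box snoRNAs, which guide ribose methylation, 27 were lower and 10 higher, with a median of -0.37. SNORD13, which acts in processing of the small subunit ribosomal RNA, read 3.58 bound, 9.01 unbound and 7.92 total RNA, at background on the bound array. Copies of SNORD116 from the Prader-Willi region recurred at the low end, SNORD116-23 at -3.25, and being near-identical they do not count as separate cases. At the other end, SNORD59B (7.73, 6.70 and 3.95, a relative difference of 2.74) and SNORD117 (7.59, 5.29 and 4.26, 2.29) were high on the bound array. Such snoRNAs lie in introns of host genes, and RNA of the intron can add to the probe set's signal.

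Of 60 H/ACA snoRNAs and Cajal body RNAs, which guide pseudouridylation, 23 were lower and 1 was higher, SCARNA9 (10.53, 10.83 and 7.78, 1.73), with a median of -0.73. SNORA68 read 5.14, 7.60 and 8.39, the lowest at -4.28. MicroRNA precursors were mostly at the edge of detection: 33 of 173 on the array passed the filter, and 4 were 2-fold lower. MIR302B read 4.07 bound, 7.32 unbound and 6.92 total RNA, and MIR302A 4.34, 7.82 and 6.24, both at background on the bound array. The other pair, MIR197 (4.86, 4.31 and 4.91) and MIR125B1, had -1.08 and -1.02.

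Of the class of long noncoding RNAs, 146 genes passed the filter, with 5 higher and 8 lower. Their median of -0.15 was close to the -0.14 of all genes. A chosen list of 11 had 9 measured, with 1 higher and 2 lower. The higher one was SNHG17 (2.25), whose second probe set gave 0.37. The snoRNA hosts EPB41L4A-AS1 (7.52, 9.56 and 7.67) and ZFAS1 (8.94, 10.57 and 8.93) both read below total RNA after centring (-1.18 and -1.02) and above it on the unbound array (2.12 and 1.88). The nuclear MALAT1 read 11.71, 10.56 and 10.31, and TUG1 11.10, 9.01 and 9.71, with relative differences of 0.37 and 0.36. Neither nuclear RNA was depleted on the bound array.

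Pluripotency genes were on the lower side. Of 60 that passed the filter, 15 were at least 2-fold lower on the bound array and none was higher, with a median of -0.63 (-0.30 and 13 lower after the signal trend was removed, 0.40 as deposited against 0.89 for all genes). POU5F1 and NANOG share their probe sets with other genes and have no value here. PRDM14, a repressor of lineage genes, read 4.79 bound, 3.75 unbound and 5.93 total RNA, at -2.16. DNMT3B, the DNA methyltransferase of early embryos, read 8.06, 6.82 and 9.04, 4.01-fold lower. SOX2 read 9.31, 8.56 and 9.50, at -1.22.

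Surface and secreted markers of stem cells were the lower part of this list, with 10 of 29 below 2-fold. GAL read 5.33, 3.69 and 6.90, the proteoglycan GPC4 8.55, 6.54 and 9.41, and the alkaline phosphatase ALPL 7.09, 6.19 and 7.96. The receptor phosphatase PTPRZ1 read 8.03, 5.14 and 8.87, at -1.88. Each of these 4 was lower on both polysome arrays than in total RNA. LIN28A (-0.63), SALL4 (-0.51) and TET1 (-0.05) were closer to all genes, and the let-7 inhibitor LIN28B (0.22) and the homeobox factor OTX2 (0.52) above them.

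Extracellular matrix genes covered a wide range. Of 64, 23 were lower and 3 higher, with a median of -0.64, and 19 were lower after the signal trend was removed. POSTN, a matrix protein of mesenchyme, was at background on the bound array (4.20, against 5.81 in total RNA) and at least 5.45-fold lower. The basement membrane collagens COL4A1 (6.15, 4.29 and 7.40) and COL4A2 (6.53, 4.34 and 7.35) had -2.28 and -1.85, and tenascin TNC (7.78, 5.49 and 9.01) had -2.27. Within the same families COL4A5 (8.01, 5.71 and 6.29) had 0.69 and COL4A6 0.26. LUM (6.95, 4.62 and 4.39, 1.53), a keratan sulfate proteoglycan, the hyaluronan linker HAPLN1 (1.03) and FREM1 (1.01) were higher.

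Among cell adhesion genes, 7 of 8 integrins lay below the median of all genes, while junction genes went both ways. Of 8 integrins 4 were lower (median -0.95), with ITGA3 at 5.39, 4.01 and 6.91 and ITGA6, the laminin receptor of stem cells, at 8.57, 6.65 and 9.05. Of 19 cadherins, claudins and junction proteins 3 were lower and 1 higher (-0.42). After the signal trend was removed 2 integrins and 0 junction genes were lower. The epithelial claudins CLDN3 (7.20, 5.53 and 5.12, 1.06), CLDN4 (0.98) and CLDN7 (0.96) were at the top, and beta-catenin CTNNB1 (11.20, 10.28 and 11.60, -1.43) at the bottom. Genes of actin and smooth muscle cytoskeleton had 16 of 47 lower and none higher (median -0.79, 7 lower after the signal trend was removed), from ACTG2 and the tubulin TUBB2A (-2.13) to PDLIM7 (0.12). Actins and tubulins have close copies, so single members are uncertain.

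Markers of trophoblast and amnion, tissues that form outside the embryo proper, lay on the other side of all genes. Of 40 on the array 32 passed the filter, and 8 were at least 2-fold higher on the bound array and none lower. A gene bright on the bound array alone can pass the filter through that array, so the 32 are a chosen set. The median was 0.75 over the 32 and 0.21 over all 40 without the filter, where all 18417 genes had -0.36. On the total RNA array 25 of the 40 were above the background line and on the bound array 31, and the mean centred level of all 40 was -0.73 bound, -0.55 unbound and -1.04 total RNA. A change in the number of such cells and in RNA per cell cannot be told apart in bulk RNA.

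Transcription factors of the list were displaced most. VGLL1, a TEAD cofactor of trophoblast, read 7.71 bound, 6.44 unbound and 4.32 total RNA, 5.17-fold higher. TFAP2B read 7.12, 6.05 and 4.14 (1.95), TFAP2A 8.71, 8.16 and 6.16 (1.52), and DLX5 6.97, 6.65 and 4.75 (1.19). VTCN1, an immune checkpoint ligand of amnion, read 7.82, 6.17 and 5.20, 3.01-fold higher, and the integrin ITGB6 read 6.02, 4.69 and 3.49, at background in total RNA and at least 2.37-fold higher. In each of these genes both polysome arrays were above total RNA after centring.

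Other defining markers of the list did not stand apart. The homeobox factor CDX2 read 4.41, 3.58 and 3.72, near background, and GATA2 4.80, 3.81 and 4.03. TFAP2C (0.32), KRT18 (-0.58) and KRT8 (-0.78) were expressed on all arrays without an excess. The hormone subunit CGA (4.01, 2.97 and 3.30) lay below the background line on every array. The part of other cell types in these values was not tested.

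Several yolk sac and liver endoderm transcripts stood far above total RNA, while the list as a whole shifted less. Of 38 on the array 25 passed the filter, with 9 higher and 1 lower. Their median was 0.41, and over all 38 without the filter it was -0.13 against -0.36 for all genes. The 9 higher genes were 8 plasma proteins and the membrane transporter SLC30A10, all from the 20 measured genes of the list that are not transcription factors. APOB, the scaffold of low-density lipoprotein, was at background in total RNA (3.47) against 6.94 bound and 4.53 unbound, at least 4.47-fold higher. AFP, the fetal serum protein of yolk sac, was likewise at background in total RNA (3.68) against 7.08 bound and 5.58 unbound, at least 4.94-fold higher. APOA1 read 7.34, 4.52 and 4.13, 4.52-fold higher.

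Transcription factors of endoderm did not share this. Of 5 measured none was higher and 1, GATA6 (5.31, 4.69 and 5.30, -1.02), was lower. FOXA2 (4.48, 3.65 and 3.98), FOXA1 (4.60, 3.81 and 3.88) and FOXA3 (4.23, 3.76 and 3.86) were near background on all 3 arrays, and GATA4 (5.36, 4.07 and 3.92) had 0.41. On the bound array 23 of the 38 genes were above the background line, and on the total RNA array 18. The part that other cells may have in these values was not tested.

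**Figure D4:**
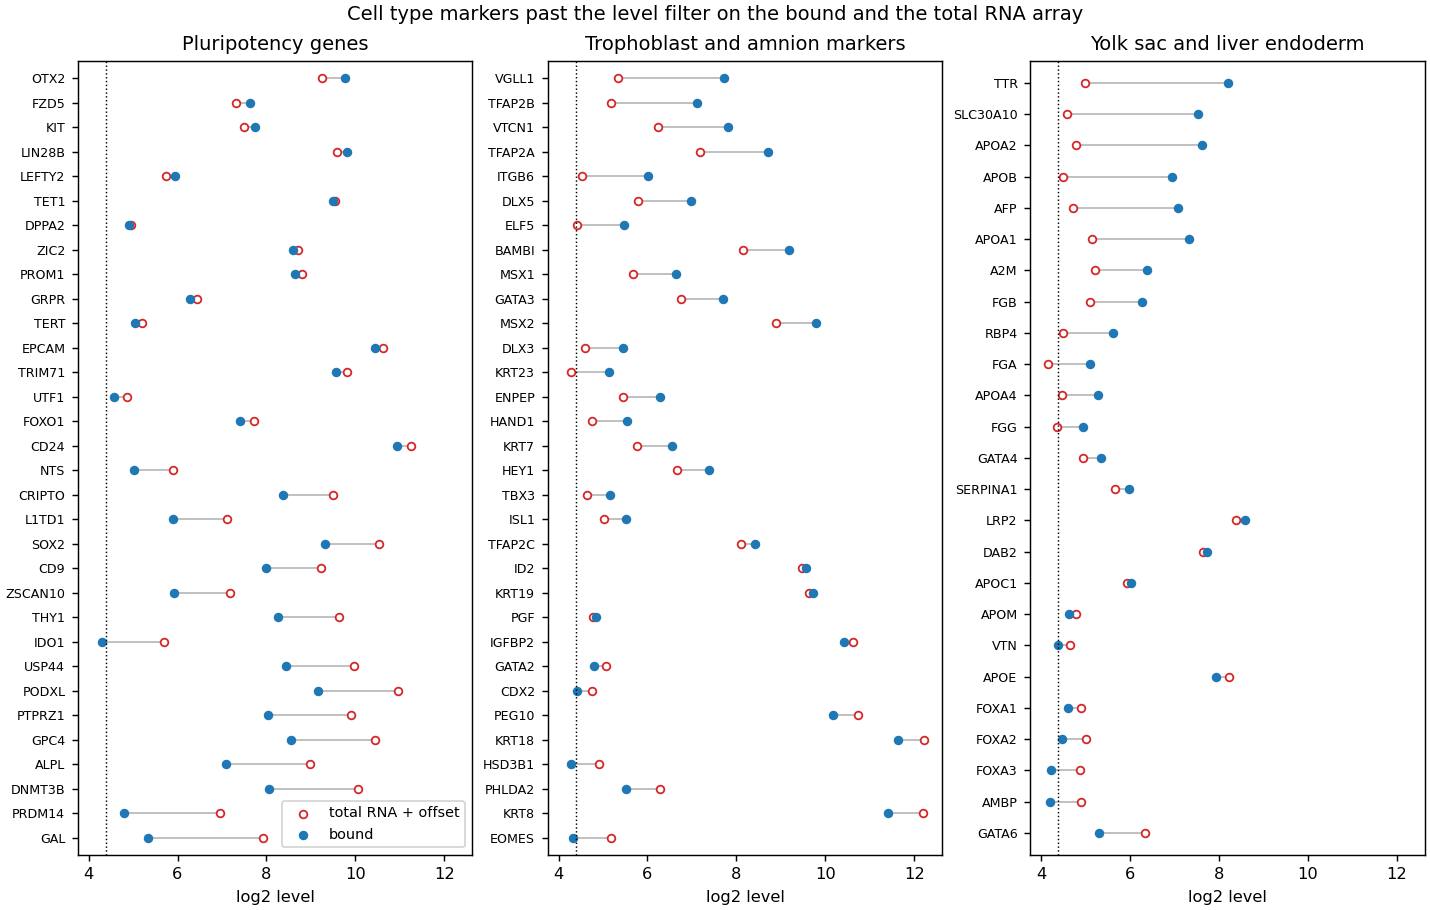
Log2 level of marker genes past the level filter on the bound array (filled) and on the total RNA array (open, shifted up by the offset between the array medians, 1.03), with the bound array's background line dotted; for pluripotency genes the 16 lowest and 16 highest of 60 are drawn. Most pluripotency genes have the filled point to the left, while TTR, APOA2, VGLL1 and their neighbours have it far to the right of a low open point.

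Neural progenitor markers were mixed, with 4 of 25 higher, 1 lower and a median of 0.15. PAX6, the eye and forebrain regulator, read 8.02 bound, 7.48 unbound and 5.27 total RNA, 3.30-fold higher, and NR2F1 had 1.52. NES, an intermediate filament, read 6.12, 4.22 and 6.83, at -1.74, and SOX1 (-0.59) was near background. Of 15 mesoderm genes BMP4 (8.91, 7.23 and 6.81, 1.07) was higher and the receptor KDR (8.30, 6.84 and 8.81, -1.54) lower, with a median of -0.32. Fibroblast and feeder cell markers had 1 of 15 higher and 3 lower, with a median of -0.34, and COL1A1 read 9.29, 7.32 and 9.86.

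Genes of RNA splicing and its regulation were listed in 2 groups, the first mixed with other genes. It holds 44 SR proteins, CLK kinases and others, among them ankyrin repeat genes and a pseudogene transcript. Earlier results of these data were known when it was made, so its count is not independent of them. Of the 44, 7 were at least 2-fold higher and 1 lower, with a median of 0.25. After the signal trend was removed, 12 were higher and 0 lower. None of the 7 is an SR protein of the SRSF family or a CLK kinase. They were ANKRD36B, ANKRD36 (6.45, 4.59 and 3.45, 1.97), the cyclophilin NKTR, the pseudogene transcript AHSA2P (1.64, brightest on the unbound array), the RNA-binding protein RBM5 (1.49), the arginine-serine rich PNISR (1.39) and the cyclin CCNL2 (1.35). The SRSF proteins ran from SRSF1 (-0.76) to SRSF5 (0.40) and the CLK kinases from CLK3 (-0.33) to CLK1 (0.73). SFPQ (-0.90) and the helicase DDX39A (-1.07) were lowest of the 44.

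Core spliceosome and hnRNP proteins had 8 of 52 lower and 1 higher, with a median of -0.54. EFTUD2 (8.49, 7.19 and 9.10, -1.64) and PRPF8 (9.91, 7.81 and 10.23, -1.35), both of the U5 particle, were among the lowest. SNRPA1 was at background in total RNA (3.48) against 6.58 bound and 7.51 unbound, at least 3.49-fold higher. With 1 array a side, the contrast between both groups has no test.

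Zinc finger genes of the ZNF series gave 21 of 411 higher (5.11%) and 3 lower, with a median of 0.10. ZNF841 (7.76, 5.37 and 4.92, 1.82) and ZNF717 (7.20, 6.25 and 4.58, 1.59) were among the highest, and ZNF124 (6.45, 9.35 and 7.67, -2.25) was lowest and most intense on the unbound array. Chromatin remodellers and histone modifiers were close to all genes on the bound array, with 2 of 72 higher, 2 lower and a median of -0.17. Besides DOT1L, EZH1 (8.27, 6.94 and 5.98, 1.26), a polycomb methyltransferase, was higher, and the remodellers SMARCA5 (10.44, 9.04 and 10.64, -1.23) and SMARCC1 (-1.06) lower. After the signal trend was removed SMARCA5 had -0.52 and SMARCC1 -0.39, and 0 of the 72 were lower. Replication-dependent histones had 5 of 51 higher and 3 lower (median -0.28), with H4C4 (11.81, 11.07 and 7.47, 3.31) the highest of all genes. Histone genes of a class are near-identical and their mRNAs lack poly(A) tails, so single members are uncertain.

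Metabolic and housekeeping lists lay below all genes to differing degrees. Of 19 glycolysis genes 10 were lower and none higher with a median of -1.09, from the glucose transporter SLC2A1 (9.56, 8.69 and 10.32, -1.80) to PFKL (-0.15). That list is bright, and after the signal trend was removed 3 were lower with a median of -0.29. Chaperones of the cytosol, listed with some of mitochondria, had 18 of 39 lower (median -0.89), and 4 after the trend was removed. They were led by HSP90AA1 (11.11, 9.96 and 11.90, -1.82) and HSPA8 (11.93, 12.59 and 12.69, -1.78). The 18 include the mitochondrial chaperones HSPA9 (-1.76) and HSPD1 (-1.60). Endoplasmic reticulum chaperones and translocon genes had 6 of 40 lower (-0.45), among them HSPA5 (9.96, 8.42 and 10.67, -1.74), the chaperone BiP.

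Cholesterol synthesis had 5 of 19 lower (median -0.52), with DHCR7 (7.41, 5.51 and 7.76, -1.38) lowest. The proteasome had 3 of 31 lower (-0.60), with PSMD1 at -1.72, and after the signal trend was removed 1 was lower and the median was -0.09. Nuclear-encoded oxidative phosphorylation subunits had 2 of 70 lower (-0.30), both of the ATP synthase: ATP5F1A (10.41, 10.62 and 10.62, -1.24) and ATP5F1B, whose -1.03 became 0.11 after the signal trend was removed. ATP5F1A then had -0.54, so that 0 of the 70 were lower. Mitochondrial ribosomal proteins had 2 of 70 lower and 1 higher, MRPS25 (7.50, 6.68 and 5.44, 1.03), with a median of -0.32, and 0 were lower after the trend was removed. After removal of the signal trend the lower genes numbered 3 in the initiation factor list, 2 in the endoplasmic reticulum list, 1 in cholesterol synthesis, 2 in cell adhesion, 2 in the core spliceosome and 3 in DNA repair. Mitochondrial import genes had 0 of 20 in either direction (-0.26), from TOMM20 (-0.95) to TOMM34 (0.25).

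Shares of signalling and stress genes 2-fold apart were close to those of all genes, 2.66% higher and 6.41% lower. Of 80 genes of Nodal, FGF and WNT signalling 2 were higher and 4 lower, with a median of -0.06, and the WNT antagonists went apart, DKK1 (6.32, 5.26 and 4.09) at 1.21 and SFRP1 (8.18, 6.31 and 8.54) at -1.39. None of 31 receptors was 2-fold apart. Stress response mRNAs with upstream reading frames had 1 of 30 lower, SLC3A2 (-1.02), and a median of -0.16. ATF4, whose translation depends on such frames, read 10.34 bound, 10.44 unbound and 9.60 total RNA, at -0.29, and ODC1, the first enzyme of polyamine synthesis, 11.15, 11.44 and 10.75, at -0.62. Genes of the p53 pathway and cell death had 1 of 33 higher, MDM4 (8.45, 6.46 and 6.17, 1.24), and 2 lower, with a median of -0.47. After the signal trend was removed, lower genes numbered 2 in the signalling list, 0 in the stress list and 1 in the p53 list. Immediate early genes had 2 of 23 lower, CCN2 (-1.38) and CCN1 (-1.18), and a median of -0.26.

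The unbound array places these lists in 3 kinds, given side by side because both comparisons use the same total RNA array. Ribosomal proteins (bound minus total -1.44, unbound minus total 1.13), other TOP mRNAs (-1.26 and 0.62), small nuclear RNAs (-1.39 and 1.27), H/ACA RNAs (-0.73 and 1.11) and C/D snoRNAs (-0.37 and 1.32) were below total RNA on the bound and above it on the unbound array. Mitotic (-0.98 and -0.94), DNA replication (-0.82 and -0.65), pluripotency (-0.63 and -0.70) and matrix genes (-0.64 and -1.37) were below it on both. Trophoblast and amnion (0.75 and 0.66) and yolk sac and liver endoderm (0.41 and 0.42) were above it on both. So were the mixed list of SR proteins, CLK kinases and other genes (0.25 and 0.45) and ZNF genes (0.10 and 0.48). Set directly against the unbound array, the bound array's list median was 0.02 for mitotic, -0.09 for DNA replication, 0.03 for pluripotency and 0.64 for matrix genes, against -2.59 for ribosomal proteins and -1.79 for other TOP mRNAs. Kit and RNA source cannot be told apart in the differences from total RNA.

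**Figure D5:**
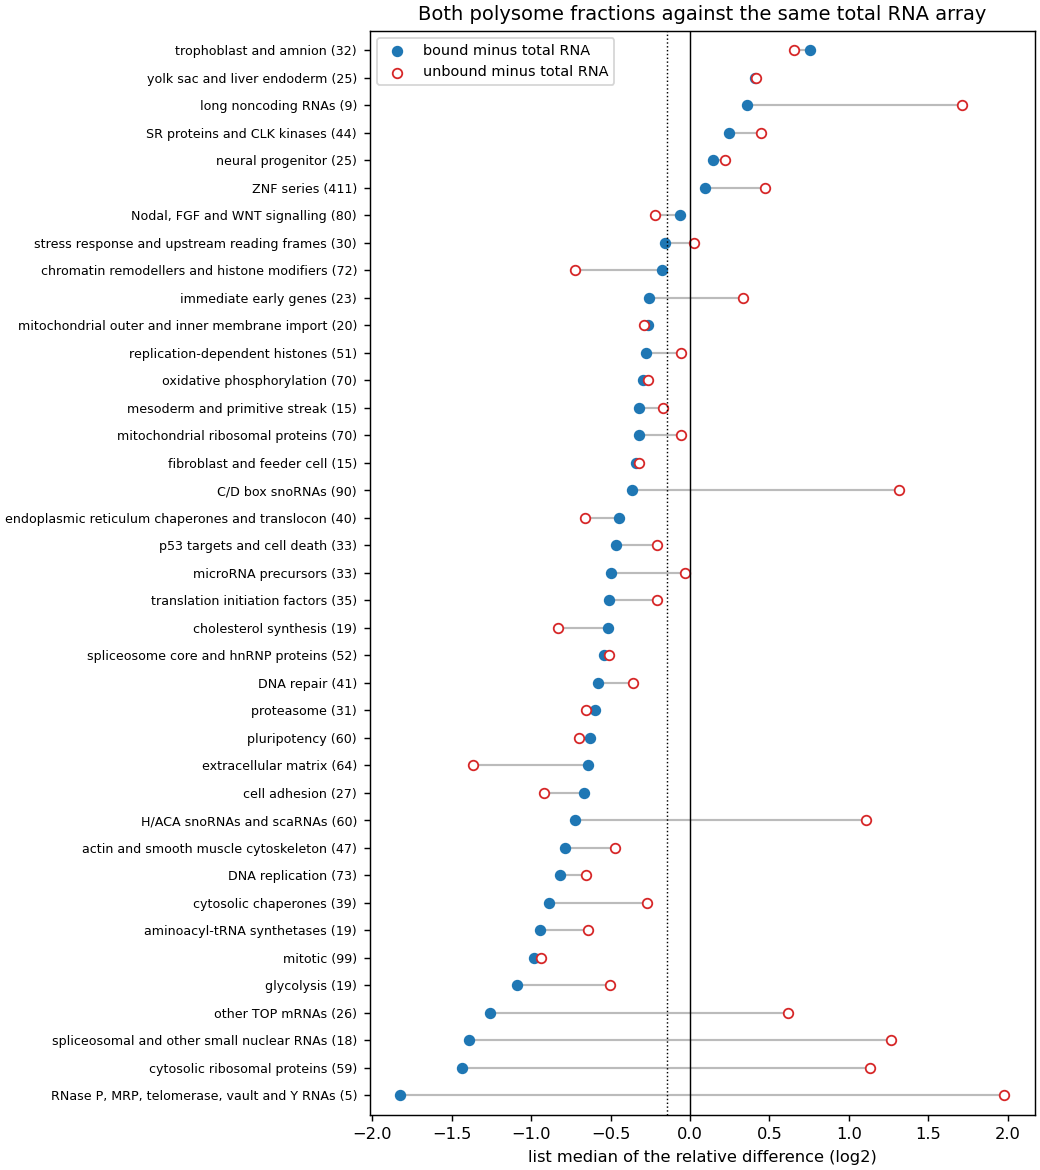
List medians of the relative difference (log2) for bound minus total RNA (filled) and unbound minus total RNA (open), both against the same total RNA array, with numbers of genes in brackets; the dotted line is the bound minus total median of all genes. For ribosomal proteins, other TOP mRNAs, snRNAs and snoRNAs the points lie on opposite sides of 0, and for mitotic, replication and pluripotency genes they lie together on the left.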

How the data were processed

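Each of 3 RNA sources of H9 cells was measured on 1 array, assigned to its source through the labelled sample type. Log2 values per probe set were deposited by the authors; Partek 6.5 and RMA appear in the submitters' processing notes. Since the distributions of the 3 columns differ, how the arrays were scaled to each other remains unknown, and a centring was put in its place, by setting the median of each array over the genes that passed the level limit to 0. The method of polysome separation is not given in the sources. The number of arrays and the signal over background limit the precision.

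Probe sets with 1 gene symbol in the platform annotation were used, 19460 of 33297, and those with several symbols (1754) or without an entry (12083) were left out. Of the 19460, 19429 matched a RefSeq table of GRCh38.p14, used for gene classes. For 769 genes with more than 1 probe set the one with the highest mean was kept. Genes at or below a background line have their fold given against that line as "at least". A gene counted as apart at a relative difference of 1 (2-fold), with no test. The members and the 40 gene lists were chosen with earlier results of these data known. Genes named are the 20 highest and 20 lowest past the filter and in the brighter set, without small RNAs, histones and provisional symbols, up to 4 highest and 4 lowest of each list or role, every member of small lists or roles, and fixed controls. SNORD116, CGA, members of the SR protein list, sequence examples and probe set pairs were named outside that rule. Promoter sequences were matched by gene identifier: 9603 of 11497 coding genes had a promoter entry. Alternatives were no centring, other centring, quantile normalization, a lowess trend (span 0.3), other filters, other handling of probe sets, other thresholds and list means. Scripts ran under Python 3.11.15 with pandas 2.3.3 and numpy 2.4.6, the lowess curve came from statsmodels 0.14.6, and plots were drawn with matplotlib 3.10.9.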

Additional observations from a re-analysis of the deposited data

How the results depend on the processing

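No paired analysis was possible because each source has 1 array, and no replicate could be left out. The count of genes at least 2-fold higher was 4835 as deposited, 507 with centring over all probe sets, 151 above the 99th percentile of background on both arrays, and 989 or 69 at thresholds of 1.5-fold or 3-fold. The count of lower genes was 69 as deposited, 410 after quantile normalization, 444 after lowess, and 2233 or 184 at those thresholds. Higher genes made up 29.3% of all genes apart, against 98.6% as deposited, 48.9% with centring over all probe sets, 49.1% after quantile normalization and 46.7% after lowess. As deposited, list medians were 0.047 for mitotic, 0.21 for DNA replication, -0.41 for ribosomal protein, -0.23 for other TOP, -0.0572 for glycolysis, 0.40 for pluripotency, 1.78 for trophoblast and amnion and 1.44 for yolk sac genes, where all genes had 0.89. Quantile normalization gave -0.87 (ribosomal proteins), -0.69 (other TOP), -0.36 (glycolysis) and -0.27 (pluripotency), and lowess -0.80, -0.67 and -0.29 for the first 3. Without the filter trophoblast markers had 0.21 and yolk sac genes -0.13, above the 99th percentile line trophoblast markers had 0.32, and the list mean of yolk sac genes was 0.76. Measured from the median of all genes in the same setting, each of these 8 lists kept its side. Above the 99th percentile line, though, the yolk sac list held only 3 genes, with a distance of 0.24 against 0.55 for the 25. The trophoblast list held 13 there, with 0.46 against 0.90 for the 32. No centring and other centring move all genes alike, so for them the side is kept by construction. Only quantile normalization, lowess, the filters and the handling of probe sets could have changed it. Signs that reversed as deposited were those of KIF22 (0.0277), GATA6 (0.0105), SLC3A2 (0.0109), MIR125B1 (0.0135) and ZFAS1 (0.01). After quantile normalization and lowess they were those of ATP5F1B (0.0622 and 0.11), ACTB (0.0782 and 0.14) and GAPDH (0.0831 and 0.14). Beyond the shift that centring and trend removal make by construction, the cause was not tested. Counts of genes apart in both polysome comparisons were not run, because both use the same total RNA array, and protein length was not analysed here.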
